A study of Mus musculus with 9 samples.

Results

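Basophil and mast cell genes were examined in RNA from mouse spleen cells labelled as CD4+ T cells. They are 10 genes chosen by name from the 56860 rows of the count table, and all 10 were found and passed the filter on low counts. The proteases Mcpt8, Prss34 and Cpa3, the histamine enzyme Hdc, the IgE receptor chains Fcer1a and Ms4a2, the receptors Cd200r3 and Il1rl1, the transcription factor Gata2 and the cytokine Il4 make up the set. The 9 libraries fell into 3 groups of 3, namely CIA mice treated with luteolin (a plant flavone), CIA mice, and control mice. CIA is the usual abbreviation of collagen-induced arthritis in mouse work on RA, the disease in the series title, although the labels do not spell it out. The labels give no strain, age, dose, route or time, no method of cell isolation, and no statement on whether replicates are separate animals, so p-values measure only the spread between these samples.

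Basophils and mast cells are the cells that carry the high-affinity IgE receptor, whose alpha chain binds IgE and whose beta and gamma chains pass the signal on. When antigen links the bound IgE, they release histamine and granule proteases and make type 2 cytokines such as IL-4. Basophils are rare blood and spleen cells, while mature mast cells live in tissues and express chymases and tryptases that mouse basophils largely lack. IL-3 drives basophil growth, IL-33 acts on both cells through the receptor encoded by Il1rl1, and GATA2 is needed for both lineages. CD4+ T cells are not known for most of these genes, although helper T cells can express Il4 and Il1rl1.

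The libraries held 33436951 to 41815573 counts in CIA with luteolin, 31851523 to 35670309 in CIA and 31234177 to 40553934 in control. The labelled cell type was checked on Cd4, which was at 104 ± 4.57 CPM in CIA with luteolin, 128 ± 39.6 in CIA and only 2.92 ± 0.639 in the libraries labelled control (SD, n = 3 each). Levels are CPM, counts scaled to a common library size with TMM factors. Cd3e, a T cell receptor chain gene, was at 25.1 ± 1.71, 38.6 ± 12.1 and 13.5 ± 1.64 CPM in the same groups. The neutrophil transcript S100a9 was at 3971 ± 275, 6744 ± 1806 and 1648 ± 242 CPM. The libraries thus hold transcripts of cells other than T cells, and those labelled control go against the label for Cd4. Each change against control below rests on those libraries, whereas CIA with luteolin against CIA takes no level from them but shares the scaling, the gene filter, the adjustment and the estimate of the spread. A fit of the 6 CIA libraries alone also called 8 members there. In bulk RNA, more cells of a type and more RNA per cell cannot be told apart.

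Sequences before the gene starts are shown for 5 members that were higher in both CIA groups, since Gata2 is itself a member and the GATA motif is the letters that its protein family is known to bind. The motif was searched as AGATAA or TGATAA on both strands in the 250 bases before each RefSeq start (build GRCm38.p6, RefSeq table). It was found for 6 of the 10 members, in 7 of their 13 start windows, and 16.6% of all 32851 windows of that length held it. In the sequences, written 5′ to 3′ on the gene's strand and ending at the base before the start, capitals mark the motif:
Ms4a2 (chr19:11623720-11623969, minus strand): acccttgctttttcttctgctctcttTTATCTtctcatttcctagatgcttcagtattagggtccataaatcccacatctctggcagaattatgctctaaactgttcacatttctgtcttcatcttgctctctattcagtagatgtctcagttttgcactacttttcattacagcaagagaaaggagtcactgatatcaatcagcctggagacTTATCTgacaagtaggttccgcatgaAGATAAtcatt
Cpa3 (chr3:20242182-20242431, minus strand): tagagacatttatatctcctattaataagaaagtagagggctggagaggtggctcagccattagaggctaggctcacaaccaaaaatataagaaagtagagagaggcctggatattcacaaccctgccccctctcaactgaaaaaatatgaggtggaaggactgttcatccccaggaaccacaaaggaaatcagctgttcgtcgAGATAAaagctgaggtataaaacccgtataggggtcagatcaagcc
Prss34 (chr17:25298144-25298393, plus strand): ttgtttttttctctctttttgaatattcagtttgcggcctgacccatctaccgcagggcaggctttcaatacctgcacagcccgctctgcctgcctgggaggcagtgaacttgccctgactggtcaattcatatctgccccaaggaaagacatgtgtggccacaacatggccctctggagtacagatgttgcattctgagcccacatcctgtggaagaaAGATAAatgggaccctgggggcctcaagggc
Cd200r3 (chr16:44943428-44943677, plus strand): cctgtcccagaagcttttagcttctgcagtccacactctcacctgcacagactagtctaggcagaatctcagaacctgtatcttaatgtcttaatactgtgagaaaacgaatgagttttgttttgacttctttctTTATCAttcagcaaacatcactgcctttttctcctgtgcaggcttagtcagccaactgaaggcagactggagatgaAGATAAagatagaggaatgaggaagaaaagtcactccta
Mcpt8 (chr14:56085198-56085447, minus strand): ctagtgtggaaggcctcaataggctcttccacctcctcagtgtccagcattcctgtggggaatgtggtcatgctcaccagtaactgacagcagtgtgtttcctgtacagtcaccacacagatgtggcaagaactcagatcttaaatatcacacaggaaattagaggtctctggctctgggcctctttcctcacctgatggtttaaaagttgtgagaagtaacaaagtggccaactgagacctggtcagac
Ms4a2 held 3 motifs, with the one nearest the start beginning 11 bases before it, and Cd200r3 held 2. In Cpa3 the motif began 46 bases before the start and in Prss34 31 bases before it. Fcer1a and Il1rl1 also held it, while the windows of Mcpt8, Gata2, Hdc and Il4 did not. The bases after the Fcer1a start were not found in a transcript of that gene in GENCODE, another annotation, unlike those of the other windows. The letters TTCNNNGAA, a motif of STAT factors searched on both strands, were in 0 of the 13 windows and in 7.02% of all windows. A match is a run of letters and not evidence of binding.

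Summed over the set, transcripts were most abundant in CIA with luteolin, lower in CIA and lowest in the libraries labelled control. The 10 genes summed to 257 ± 12.6 CPM in CIA with luteolin, 112 ± 37.8 CPM in CIA and 14.2 ± 2.50 CPM in control (SD, n = 3 each), and no library of one group overlapped another group. Of these sums, Hdc alone gave 47.7 ± 4.35, 54.9 ± 18.9 and 9.67 ± 2.48 CPM in the same groups. In CIA with luteolin against CIA, 8 members rose and none fell, where 23.1% of the 19348 genes tested were called higher and 24.2% lower at an adjusted p of 0.05 (edgeR quasi-likelihood test, Benjamini-Hochberg over all genes tested). In CIA against control 9 rose and none fell, where 26.6% of genes were called higher and 24.5% lower. In CIA with luteolin against control all 10 rose, beside 24.2% of genes higher and 20.8% lower. Il4 among them met the filter on low counts only with the luteolin libraries, where it was highest. Every library of the first group lay above every library of the second for the same 8, 9 and 10 members, as it did for 28.0%, 29.7% and 32.3% of all genes tested. The members' median log2 fold changes were 1.93, 3.35 and 5.27 in these comparisons, against -0.04, -0.01 and -0.01 over all genes tested. The 3 comparisons share libraries with each other and are not independent. The set was chosen with results of these data known, so the counts describe it and do not show that it differs from other sets.

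**Figure D1:**
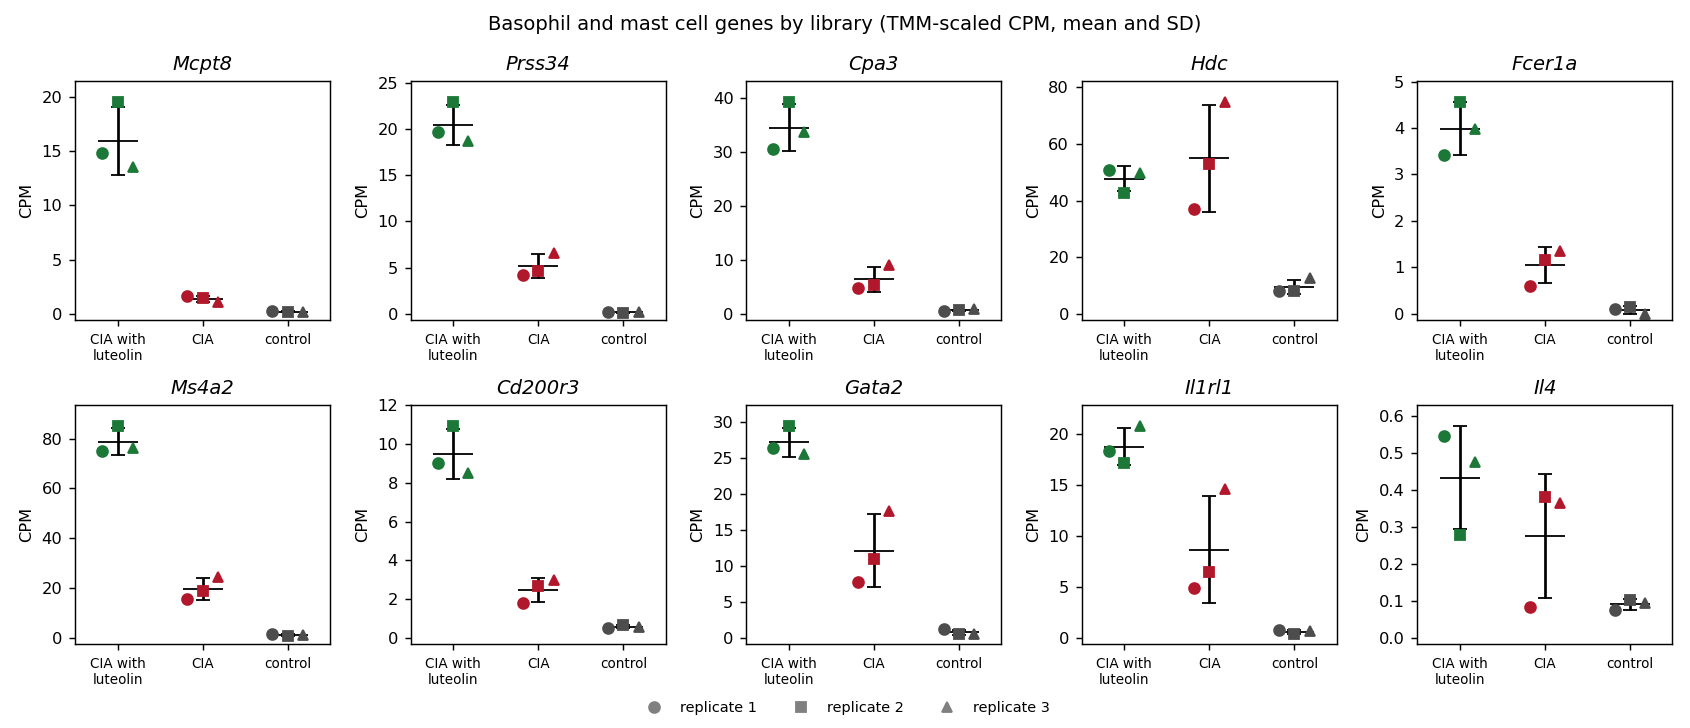
TMM-scaled CPM of each of the 10 genes (vertical axis, from near 0, its scale differing by gene) in CIA with luteolin, CIA and control. Points are libraries by replicate, horizontal bars the mean and whiskers the SD of 3. Mcpt8 reached 13.5 to 19.5 CPM with luteolin, while Hdc overlapped between both CIA groups.

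Among the proteases, Mcpt8, a serine protease stored in mouse basophil granules (chromosome 14, 56319623 to 56322730, build mm39, minus strand), had the largest fold change of the set between the CIA groups. Its level was 14.8, 19.5 and 13.5 CPM in CIA with luteolin, 1.61, 1.46 and 1.06 CPM in CIA, and 0.250, 0.205 and 0.190 CPM in control. No group overlapped another. The log2 fold change was 3.52 ± 0.20 (SE) in CIA with luteolin against CIA (edgeR, adjusted p = 4.80e-07), an 11.5-fold rise. In CIA against control it was 2.66 ± 0.29 (edgeR, adjusted p = 5.95e-05), from 32 to 58 counts a library in CIA and 6 to 10 in control.

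Prss34, a tryptase-like protease of mouse basophils (chromosome 17, 25517368 to 25519139, plus strand), was at 19.7, 22.9 and 18.7 CPM in CIA with luteolin, at 4.23, 4.62 and 6.62 CPM in CIA and at 0.250, 0.102 and 0.190 CPM in control. Here the larger step lay between CIA and control, with a log2 fold change of 4.80 ± 0.29 (edgeR, adjusted p = 2.59e-06), whereas CIA with luteolin against CIA gave 1.99 ± 0.19 (edgeR, adjusted p = 1.77e-05). The groups did not overlap. Cpa3, a carboxypeptidase of basophil and mast cell granules (chromosome 3, 20269784 to 20296345, minus strand), was at 30.6, 39.2 and 33.6 CPM in CIA with luteolin, at 4.84, 5.38 and 9.0 CPM in CIA and at 0.600, 0.640 and 0.823 CPM in control. It rose by 2.43 ± 0.21 with luteolin over CIA (edgeR, adjusted p = 1.01e-05) and by 3.22 ± 0.27 in CIA over control (edgeR, adjusted p = 1.42e-05).

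The alpha and beta chains of the IgE receptor rose in CIA over control and again with luteolin over CIA. Ms4a2, the beta chain (chromosome 19, 11592887 to 11601083, minus strand), had the most counts of the set with luteolin. It was at 75.0, 85.0 and 76.3 CPM in CIA with luteolin, at 15.6, 19.0 and 24.5 CPM in CIA and at 1.70, 0.948 and 1.30 CPM in control. The log2 fold change was 2.00 ± 0.18 in CIA with luteolin against CIA (edgeR, adjusted p = 1.14e-05) and 3.90 ± 0.22 in CIA against control (edgeR, adjusted p = 1.75e-06). Fcer1a, the alpha chain that binds IgE (chromosome 1, 173048851 to 173054781, minus strand), was at 3.42, 4.56 and 3.98 CPM in CIA with luteolin, at 0.612, 1.17 and 1.36 CPM in CIA and at 0.10, 0.154 and 0 CPM in control. It rose by 1.94 ± 0.36 and by 3.48 ± 0.55 in these comparisons (edgeR, adjusted p = 0.00148 and 0.000512). The second value rests on 4, 6 and 0 counts in control, and without control replicate 2 it was 4.14, with 6.08 in place of 5.42 for CIA with luteolin against control.

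The gamma chain gene Fcer1g, which also serves the Fc receptors of macrophages and neutrophils, had smaller fold changes. It was at 52.7 ± 3.77 CPM in CIA with luteolin, 37.5 ± 8.57 in CIA and 27.4 ± 0.552 in control (SD, n = 3 each). Its log2 fold change was 0.49 ± 0.15 in CIA with luteolin against CIA (edgeR, adjusted p = 0.0175) and 0.45 ± 0.15 in CIA against control (edgeR, adjusted p = 0.0255). CIA and control overlapped for Fcer1g, with CIA replicate 1 at 27.8 CPM and control replicate 1 at 28.0 CPM. Per kilobase of exon, Ms4a2 stood at 0.416 to 0.528 of the level of Fcer1g in CIA with luteolin, 0.145 to 0.174 in CIA and 0.0109 to 0.0188 in control. The ratio of Fcer1a to Ms4a2 per kilobase overlapped between the CIA groups, at 0.128 to 0.151 in CIA with luteolin and 0.111 to 0.174 in CIA. In control it ran from 0 to 0.457 on 10 counts of Fcer1a in all, too few to place it against either CIA group.

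Cd200r3, an activating receptor of the CD200 receptor family on mouse basophils and mast cells (chromosome 16, 44764041 to 44801743, plus strand), was at 9.04, 10.9 and 8.49 CPM in CIA with luteolin, at 1.81, 2.66 and 3.01 CPM in CIA and at 0.50, 0.640 and 0.570 CPM in control. No group overlapped another. It rose by 1.93 ± 0.20 with luteolin over CIA (edgeR, adjusted p = 2.88e-05) and by 2.12 ± 0.24 in CIA over control (edgeR, adjusted p = 8.06e-05). Other genes of its family lie within 200 kb of it in the table. Cd200r1, an inhibitory receptor, was at 23.9 ± 1.02 CPM in CIA with luteolin, 7.70 ± 1.61 in CIA and 9.08 ± 2.17 in control, and like Cd200r3 it rose with luteolin over CIA (1.64 ± 0.19, edgeR, adjusted p = 7.51e-05). It did not pass in CIA against control (-0.24 ± 0.19, edgeR, adjusted p = 0.314). Cd200r2 also rose with luteolin over CIA (1.51 ± 0.45, edgeR, adjusted p = 0.0184), but fell by 2.13 on the log2 scale in CIA against control, where Cd200r3 rose (SE 0.45, edgeR, adjusted p = 0.00279). Cd200r4 passed in no comparison.

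Gata2, the transcription factor that both lineages need and that blood progenitors also express (chromosome 6, 88170873 to 88184014, plus strand), was at 26.4, 29.4 and 25.6 CPM in CIA with luteolin, at 7.76, 10.9 and 17.6 CPM in CIA and at 1.20, 0.512 and 0.570 CPM in control. CIA replicate 3 stood above the other CIA libraries but below every library with luteolin. The log2 fold change was 1.17 ± 0.28 in CIA with luteolin against CIA (edgeR, adjusted p = 0.00600) and 3.96 ± 0.36 in CIA against control (edgeR, adjusted p = 2.07e-05). Il1rl1, the IL-33 receptor chain, which regulatory T cells and type 2 innate lymphoid cells also make (chromosome 1, 40468730 to 40504575, plus strand), was at 18.3, 17.2 and 20.8 CPM in CIA with luteolin, at 4.92, 6.49 and 14.7 CPM in CIA and at 0.800, 0.410 and 0.633 CPM in control. It rose by 3.81 ± 0.43 in CIA over control (edgeR, adjusted p = 7.58e-05; 3.21 without CIA replicate 3). In CIA with luteolin against CIA it rose by 1.12 ± 0.33 (edgeR, adjusted p = 0.0171). That value was 1.72 without CIA replicate 3, and it did not pass without CIA replicate 2 (0.95) or without luteolin replicate 3 (1.05). Its full range with each library left out in turn was 0.84 to 1.72.

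Hdc and Il4 were the members that did not pass between the CIA groups. Hdc, histidine decarboxylase, makes histamine and is also expressed by neutrophils and their precursors in mice (chromosome 2, 126435587 to 126461219, minus strand). It was at 50.7, 42.8 and 49.7 CPM in CIA with luteolin, at 37.1, 52.9 and 74.8 CPM in CIA and at 8.20, 8.27 and 12.5 CPM in control. The CIA groups overlapped, with a log2 fold change of -0.20 ± 0.23 (edgeR, adjusted p = 0.50), and CIA stood 2.51 ± 0.25 above control (edgeR, adjusted p = 3.53e-05). Without CIA replicate 3 the value between the CIA groups was 0.08. S100a9 was at 4783, 7110 and 8339 CPM in the CIA libraries, in the same order as Hdc, and its part in the level of Hdc was not tested.

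Il4, the cytokine of basophils and type 2 helper cells (chromosome 11, 53493809 to 53509496, minus strand), had few reads. It had 23, 11 and 16 counts in CIA with luteolin, 3, 13 and 11 in CIA and 3, 4 and 3 in control. Il4 met the filter on low counts only with the luteolin libraries, the group where it was highest. Its calls are therefore not independent of that filter. The CIA groups overlapped, and so did CIA and control, since CIA replicate 1 was at the level of control. It passed only in CIA with luteolin against control, at 2.21 ± 0.60 (edgeR, adjusted p = 0.0121), and there not without control replicate 1 (2.09) or luteolin replicate 1 (2.01). In CIA against control it was at 1.55 ± 0.64 (edgeR, adjusted p = 0.0638), and leaving out CIA replicate 1 brought it over the threshold at 1.99. The ratio of CPM from summed counts was 2.92 in CIA against control with an exact 95% interval of 0.987 to 10.4, and 1.65 in CIA with luteolin against CIA with 0.820 to 3.47. Counts were halved for these intervals because each fragment seems to enter as 2 reads, and they cover counting error only.

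**Figure D2:**
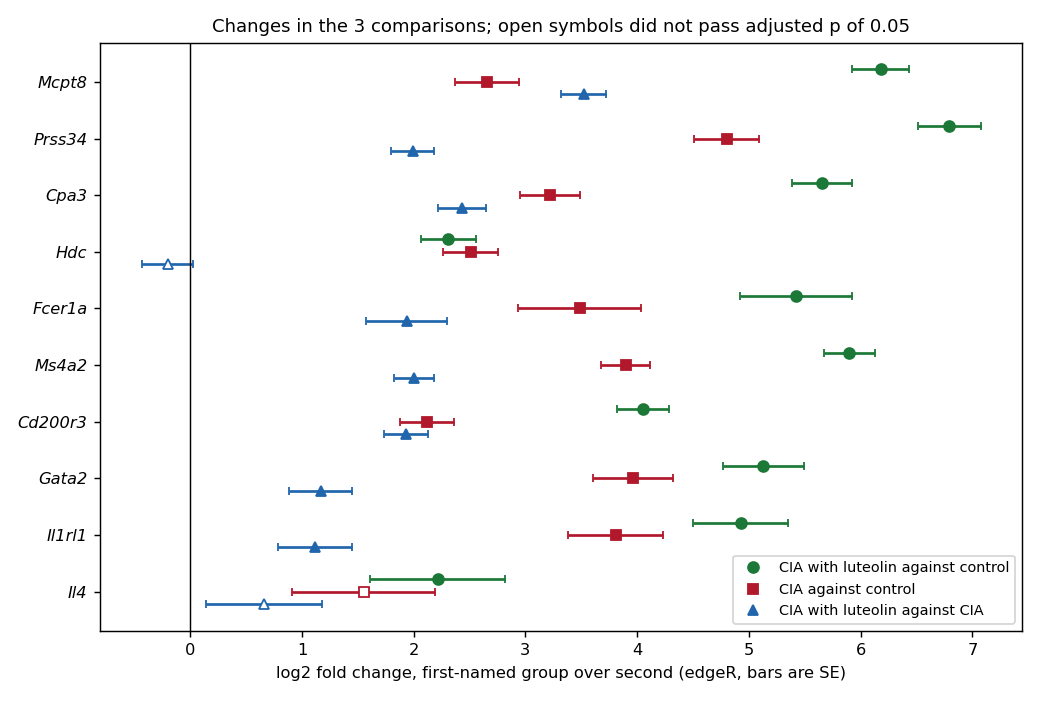
Log2 fold changes from edgeR (horizontal axis, first-named group over second) with SE bars for each gene in the 3 comparisons; filled symbols passed an adjusted p of 0.05. Mcpt8 had the largest value in CIA with luteolin against CIA, 3.52, and Hdc the lowest, -0.20.

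Per kilobase of exon, the order of the members differed between groups. With luteolin Ms4a2 was highest at 28.0 ± 1.93 CPM per kb, above Cpa3 at 22.7 ± 2.87, Prss34 at 16.7 ± 1.79 and Mcpt8 at 16.0 ± 3.15, of which only Prss34 and Mcpt8 overlapped. Hdc followed, at 7.47 ± 0.680. In CIA Hdc was first at 8.60 ± 2.96 CPM per kb, overlapping Ms4a2 at 7.01 ± 1.61, and Prss34 and Cpa3 followed at 4.23 ± 1.05 and 4.22 ± 1.49. In control Hdc was first at 1.51 ± 0.388 CPM per kb, above Ms4a2 at 0.468 ± 0.134, and most of the lower neighbours overlapped. Il4 was last in each group.

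Set against Cpa3 in the same library, the granule and receptor genes kept no fixed proportion. The ratio of Mcpt8 to Cpa3 per kilobase was 0.735, 0.756 and 0.611 in CIA with luteolin, 0.507, 0.413 and 0.179 in CIA and 0.633, 0.486 and 0.351 in control. Every library with luteolin lay above every CIA library, and the control range overlapped both. The ratio of Prss34 to Cpa3 was lower with luteolin than in CIA and lowest in control, at 0.801, 0.726 and 0.692 in CIA with luteolin, 1.09, 1.07 and 0.914 in CIA and 0.518, 0.199 and 0.287 in control. The ratio of Hdc to Cpa3 was 0.259 to 0.394 in CIA with luteolin, 1.82 to 2.33 in CIA and 3.07 to 3.62 in control. Gata2 and Il1rl1 were also lower relative to Cpa3 with luteolin, at 0.211 to 0.243 against 0.451 to 0.571 in CIA for Gata2, and 0.0967 to 0.136 against 0.224 to 0.358 in CIA for Il1rl1. In control the ratio was 0.195 to 0.562 for Gata2, overlapping both CIA groups, and 0.141 to 0.293 for Il1rl1, overlapping CIA. Control ratios rest on 75 counts of Cpa3 in all. With 3 libraries against 3, an exact permutation test cannot go below 0.10, and these ratios are given as values without a test.

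**Figure D3:**
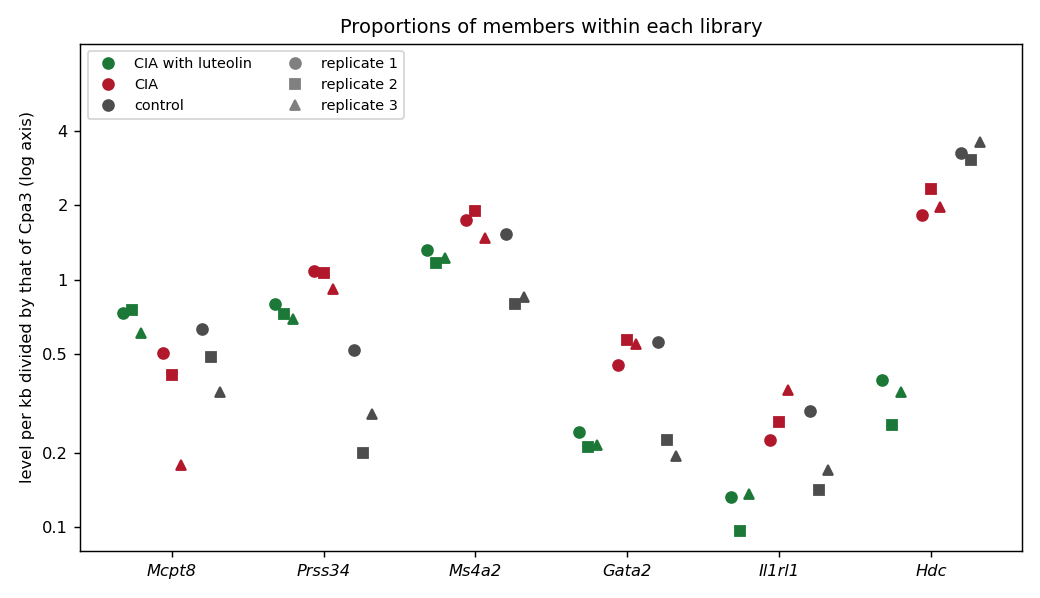
Level per kb of 6 members divided by that of Cpa3 in the same library (log axis), colored by group with symbols for replicates. Mcpt8 lay higher with luteolin (0.611 to 0.756) than in CIA (0.179 to 0.507), and Hdc lay lower.

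Within the CIA group the libraries were uneven. CIA replicate 3 was the highest for 8 of the 10 members and CIA replicate 1 the lowest for 9. Mcpt8 alone ran in the opposite order, with CIA replicate 1 the highest. The highest CIA library exceeded the lowest by 1.52 times for Mcpt8, 1.57 for Prss34, 2.27 for Gata2, 2.98 for Il1rl1 and 4.56 for Il4. Among the libraries with luteolin the same figure ran from 1.13 for Ms4a2 to 1.97 for Il4, and replicate 2 was the highest for 7 of 10 members. The B cell marker list summed to 1572, 914 and 275 CPM in CIA replicates 1, 2 and 3, the reverse of the order of most members. With luteolin it summed to 408 to 507 CPM, and its part in the spread of the members was not tested.

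Other genes known from basophils rose mostly in the comparisons with control. Of 21 such genes that are not members, 19 were tested, and 9 rose and 4 fell in CIA with luteolin against CIA (median log2 fold change 0.27). Those that fell were Il18rap, Ccl3, Ccl4 and Cd69. In CIA against control 14 rose and 3, namely Il3ra, Csf2rb2 and Il6, fell (median 1.11). In CIA with luteolin against control 14 rose and none fell (median 1.45). Beside this list and those below, 23.1% of all genes tested were higher and 24.2% lower in CIA with luteolin against CIA. In CIA against control the shares were 26.6% and 24.5%, and in CIA with luteolin against control 24.2% and 20.8%. Cyp11a1, a steroid synthesis enzyme that mouse basophils and mast cells express, was at 18.3, 18.5 and 16.2 CPM in CIA with luteolin, 2.61, 4.10 and 3.84 in CIA and 1.85, 2.07 and 1.77 in control. It rose by 2.33 ± 0.17 with luteolin over CIA (edgeR, adjusted p = 2.28e-06). Itga2, the integrin chain CD49b used to sort basophils and NK cells, rose by 1.53 ± 0.26 with luteolin over CIA (edgeR, adjusted p = 0.000920) and did not pass in CIA against control (0.25 ± 0.28, edgeR, adjusted p = 0.480). Rab44, a GTPase of mast cell and basophil granule release, rose in both, by 1.29 ± 0.17 and 2.07 ± 0.18 (edgeR, adjusted p = 0.000148 and 1.58e-05). Il13 had 14 counts in CIA with luteolin, 6 in CIA and 0 in control and was not tested.

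The chymase and tryptase genes of mature tissue mast cells were at or near 0. Of 18 mast cell genes beside the members, 12 were too low to test, and 5 had no count in any library, namely the chymase genes Cma2, Mcpt1 and Mcpt4 and the receptors Mrgprb1 and Mrgprb2. The tryptase gene Tpsb2 had 2 counts in CIA with luteolin, 4 in CIA and 0 in control, and Tpsab1 had 0, 2 and 2. Cma1, a chymase, had 27 counts in CIA with luteolin and none in CIA or control. A count of 0 in a library allows up to 3 fragments, or 6 counts with both mates, which is 0.143 to 0.192 CPM here, so lower levels were not detectable. Kit, the stem cell factor receptor of mast cells and blood progenitors, was at 41.5, 40.9 and 46.0 CPM in CIA with luteolin, 10.5, 14.5 and 18.8 in CIA and 9.25, 10.5 and 9.30 in control. It rose by 1.56 ± 0.18 with luteolin over CIA (edgeR, adjusted p = 5.47e-05). Of the 6 mast cell genes tested 5 rose with luteolin over CIA (median 0.67), namely Kit, Mitf, Hpgds, Ndst2 and Ctsg. Ctsg is also a gene of neutrophil precursors, and Kit is counted again among the progenitor genes below. In CIA against control 3 rose and 1 fell (median 0.47), and against control with luteolin 5 rose and 1 fell (median 1.05). The one that fell in both comparisons with control was Hpgds, a prostaglandin D synthase that macrophages also make, which is among the 5 that rose with luteolin over CIA (0.55 ± 0.20, edgeR, adjusted p = 0.0433).

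Most related protease genes beside Mcpt8 and Prss34 on the chromosome were at or near 0. Neighbours were taken as all genes within 200 kb, and those named were chosen after their values were seen. Around Mcpt8, 30 other genes are listed, 13 without a count and 6 tested, and Mcpt1, Mcpt2, Mcpt4, Mcpt9 and Cma1 of the same protease locus held 27 counts or fewer over all 9 libraries. Ctsg, cathepsin G of neutrophil precursors (chromosome 14, 56337338 to 56340031), lies in the same locus and was at 45.7 ± 3.40 CPM in CIA with luteolin, 1.55 ± 0.407 in CIA and 0.419 ± 0.159 in control, a log2 fold change of 4.89 ± 0.21 with luteolin over CIA (edgeR, adjusted p = 8.06e-08). Gzmb, a granzyme of cytotoxic cells that basophils can also express, was at 13.3 ± 0.810, 5.77 ± 2.88 and 2.03 ± 0.420 CPM and rose by 1.21 ± 0.29 with luteolin over CIA (edgeR, adjusted p = 0.00642). Around Prss34, the related protease genes Prss28 and Prss29 held 19 and 4 counts over all libraries, every one of them in CIA with luteolin. Prss34 itself held 630 to 909 counts in each library with luteolin. Next to Ms4a2, Ms4a3, a gene of granulocyte and monocyte progenitors, was at 8.58 ± 1.14 CPM in CIA with luteolin, 0.261 ± 0.0331 in CIA and 0.185 ± 0.167 in control.

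Next to Il1rl1 lie other receptor genes of the IL-1 family. In CIA against control, where Il1rl1 rose by 3.81 on the log2 scale, Il18rap rose by 2.90, Il1r1 by 2.17, Il18r1 by 1.63 and Il1rl2 by 0.67 (edgeR, adjusted p = 5.45e-06, 0.00123, 5.68e-05 and 0.0486). Of the other tested neighbours, Slc9a4 fell there (-1.67 ± 0.57, edgeR, adjusted p = 0.0315) and Gm17970 did not pass (0.60 ± 0.47, edgeR, adjusted p = 0.307). In CIA with luteolin against control all 6 tested neighbours of Il1rl1 rose, Slc9a4 and Gm17970 included, beside 24.2% of all genes tested. Between the CIA groups their directions differed. Il18rap, an IL-18 receptor chain, was at 45.9 ± 2.15 CPM in CIA with luteolin, 121 ± 38.1 in CIA and 16.3 ± 0.848 in control, and fell by 1.40 on the log2 scale with luteolin against CIA (SE 0.19, edgeR, adjusted p = 0.000197), where Il1rl1 rose. Il18r1, its partner, did not pass there (-0.18 ± 0.17, edgeR, adjusted p = 0.416). Il1rl2, the IL-36 receptor, rose by 2.63 ± 0.24 with luteolin over CIA (edgeR, adjusted p = 1.16e-05). Beside Il4, the DNA repair gene Rad50 passed in no comparison.

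Most genes of IgE receptor signalling did not rise with luteolin over CIA, where the alpha and beta chain genes did. Of 20 genes on this list, which counts the gamma chain gene Fcer1g, all were tested, and 1 rose and 10 fell in CIA with luteolin against CIA (median -0.32), and Fcer1g was the one that rose. In CIA against control, where the alpha and beta chain genes rose, 12 of the 20 rose and 2 fell (median 0.29), beside 26.6% of all genes tested that were higher, and in CIA with luteolin against control 5 rose and 8 fell (median 0.06). Lyn, the kinase that first phosphorylates the receptor, was at 233 ± 8.19 CPM in CIA with luteolin, 340 ± 9.64 in CIA and 291 ± 15.4 in control, and fell by 0.54 on the log2 scale with luteolin against CIA (SE 0.07, edgeR, adjusted p = 0.000119). Fyn, another kinase of the receptor, fell by 0.89 there (SE 0.11, edgeR, adjusted p = 0.000130). Gab2, an adaptor of mast cell activation, rose by 1.04 ± 0.20 in CIA over control (edgeR, adjusted p = 0.00160). Most of these genes are also expressed by B or T cells. B cell markers summed to 408 to 507 CPM in CIA with luteolin, 275 to 1572 in CIA and 1984 to 2049 in control, and their part in these genes was not tested.

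Among cytokines and receptors that act on these cells, receptor genes for IL-3 differed between the CIA groups while IL-3 itself was nearly undetected. Il3 had 4 counts in CIA with luteolin and none in CIA or control, and Il33 had 1, 3 and 6. Csf2rb, the common beta chain of the receptors for IL-3, IL-5 and GM-CSF, was at 358, 357 and 357 CPM in CIA with luteolin, 106, 138 and 135 in CIA and 123, 129 and 129 in control. It rose by 1.5 ± 0.10 with luteolin over CIA (edgeR, adjusted p = 1.15e-06). Csf2rb2, the mouse beta chain specific for IL-3, rose by 2.14 ± 0.12 with luteolin over CIA (edgeR, adjusted p = 3.42e-07). Csf2rb did not pass in CIA against control (-0.01 ± 0.10, edgeR, adjusted p = 0.956) while Csf2rb2 fell by 0.58 (SE 0.11, edgeR, adjusted p = 0.00174), where 9 members rose. Of the 17 tested genes on this list 6 rose and 3 fell with luteolin against CIA (median 0.21), 8 rose and 5 fell in CIA against control (median 0.32), and 12 rose and 1 fell in CIA with luteolin against control (median 0.76).

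The histamine and lipid mediator genes rose in CIA against control, 10 of 12 tested with 1 lower (median 2.27). With luteolin against CIA 2 rose and 4 fell (median 0.24), and against control 9 rose and 1 fell (median 2.08). Hnmt, which breaks down histamine, was at 16.1 ± 0.566 CPM in CIA with luteolin, 24.9 ± 2.31 in CIA and 4.75 ± 1.12 in control, and fell by 0.63 with luteolin against CIA (SE 0.15, edgeR, adjusted p = 0.00580). Ptgs1, cyclooxygenase 1, also of platelets, was at 13.1 ± 1.45, 2.70 ± 1.62 and 0.623 ± 0.176 CPM and rose by 2.28 ± 0.34 with luteolin over CIA (edgeR, adjusted p = 0.000358). Alox5 and its partner Alox5ap, which make leukotrienes in neutrophils as well, rose by 2.70 ± 0.20 and 2.14 ± 0.16 in CIA over control (edgeR, adjusted p = 6.47e-06 and 6.16e-06) and did not pass between the CIA groups.

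Lineage factors beside Gata2 were mixed. Of 13, all tested, 4 rose and 3 fell with luteolin against CIA (median -0.06), beside 23.1% of all genes tested higher and 24.2% lower. In CIA against control 7 rose and 3 fell (median 0.56), and 9 rose and 3 fell in CIA with luteolin against control (median 0.65). Zfpm1, Ikzf1 and Stat5a were those that fell with luteolin against CIA, and Zfpm1, Lmo2 and Irf8 in CIA against control. With luteolin against control Zfpm1, Ikzf1 and Irf8 fell. Gata1, a factor of mast cells, eosinophils, megakaryocytes and red cells, was at 3.80, 3.93 and 3.09 CPM in CIA with luteolin, 1.25, 1.35 and 1.98 in CIA and 0.150, 0.256 and 0.127 in control. It rose by 1.25 ± 0.24 and 3.05 ± 0.33 in CIA with luteolin against CIA and in CIA against control (edgeR, adjusted p = 0.00192 and 5.84e-05). Tal1, its partner in blood progenitors, rose by 1.26 ± 0.36 and 2.87 ± 0.47 (edgeR, adjusted p = 0.0142 and 0.000638).

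**Figure D4:**
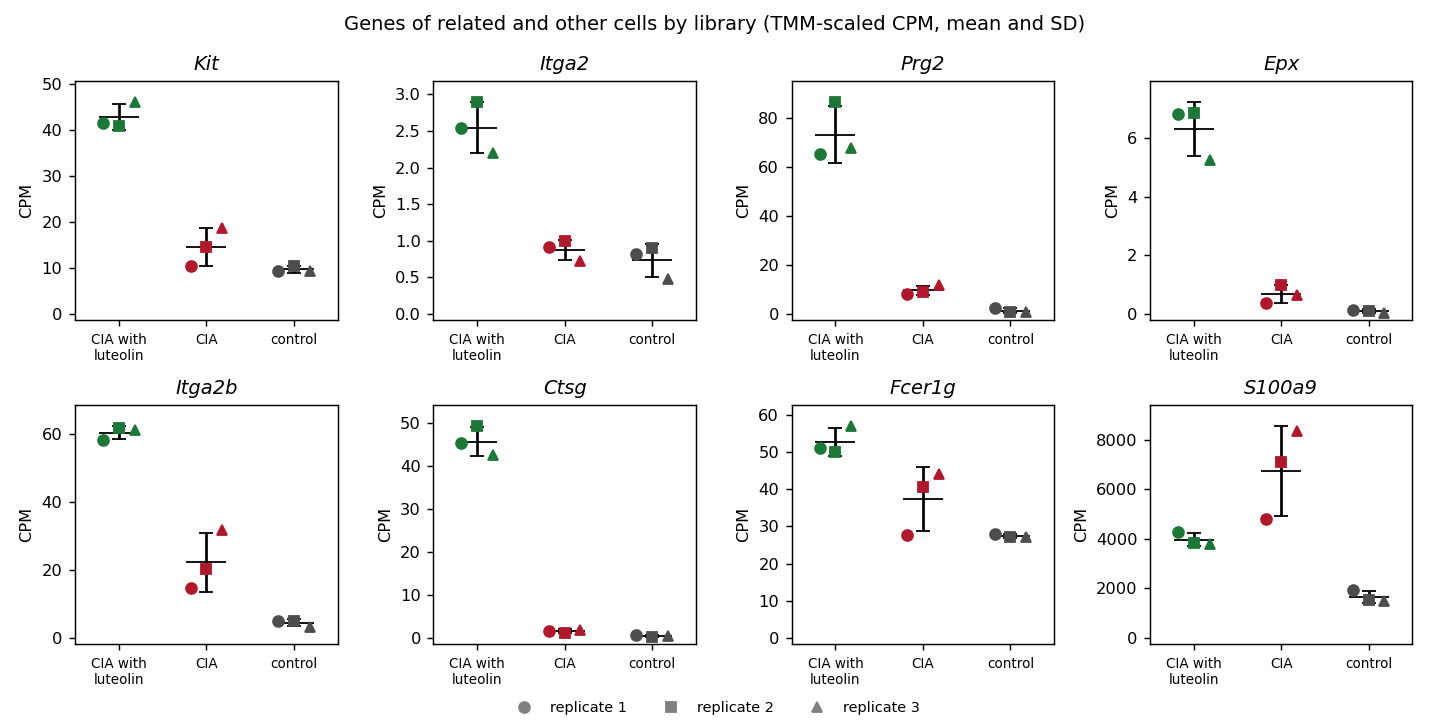
TMM-scaled CPM (vertical axes, from near 0) of genes of progenitors and mast cells (Kit), basophils and NK cells (Itga2), eosinophils (Prg2, Epx), megakaryocytes (Itga2b), neutrophil precursors (Ctsg), Fc receptors (Fcer1g) and neutrophils (S100a9). Points are libraries, bars the mean and SD of 3. Ctsg was at 42.5 to 49.3 CPM with luteolin and at most 1.92 CPM in the other groups.

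Marker genes of other cell types were counted in the same way beside the members. Of 9 tested eosinophil genes 6 rose and 1 fell with luteolin against CIA (median 2.93), 4 rose and 1 fell in CIA against control (median 1.31), and 8 rose and 1 fell against control with luteolin (median 4.41). Prg2, the major basic protein of eosinophil granules, which basophils also contain, was at 65.3, 86.3 and 67.7 CPM in CIA with luteolin, 8.12, 9.07 and 11.7 in CIA and 2.38, 0.922 and 0.886 in control. Epx, eosinophil peroxidase, was at 6.84, 6.85 and 5.26 CPM with luteolin, 0.389, 0.995 and 0.662 in CIA and 0.150, 0.102 and 0.0316 in control. These rose by 2.93 ± 0.27 and 3.21 ± 0.32 with luteolin over CIA (edgeR, adjusted p = 1.52e-05 and 2.28e-05). Il5ra, the IL-5 receptor chain of eosinophils and some B cells, was the one that fell, by 1.0 on the log2 scale with luteolin against CIA (SE 0.12, edgeR, adjusted p = 6.65e-05). Siglecf, a surface lectin of mature eosinophils, did not pass there (0.95 ± 0.44, edgeR, adjusted p = 0.0962).

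Progenitor, megakaryocyte and erythroid genes rose in 6 of 9 tested with none lower in CIA with luteolin against CIA (median 1.26). All 9 rose in CIA against control (median 2.52), and 8 rose with luteolin against control (median 4.13). Their summed level was 141 to 152 CPM in CIA with luteolin, 32.9 to 69.7 in CIA and 15.5 to 18.5 in control. Itga2b, the platelet integrin chain CD41, was at 60.4 ± 1.93, 22.2 ± 8.76 and 4.45 ± 1.06 CPM. Pf4, platelet factor 4, was at 24.6 ± 0.929, 4.06 ± 2.00 and 1.35 ± 0.417 CPM. The part of these cells in the level of Gata2, which they also express, was not tested.

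Neutrophil markers rose in 11 of 13 in CIA against control with none lower (median 2.03), and in all 13 with luteolin against control (median 2.18). With luteolin against CIA 6 rose, which were the granule genes of precursors Mpo, Elane, Prtn3, Ngp, Camp and Ltf, and 6 fell, among them S100a9 (median 0.02). Mpo, myeloperoxidase, was at 261 ± 28.3 CPM in CIA with luteolin, 1.54 ± 0.339 in CIA and 2.35 ± 1.30 in control. Macrophage markers rose in 10 of 10 with luteolin over CIA (median 5.46), while in CIA against control 8 fell (median -3.94) and with luteolin against control 7 rose and 1 fell (median 1.33). They summed to 653 to 763 CPM with luteolin, 168 to 218 in CIA and 270 to 366 in control. The summed neutrophil list was at 8709 to 9129 CPM with luteolin, 6810 to 11407 in CIA and 2125 to 2485 in control. The part of these cells in the members' levels was not tested.

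T cell markers did not follow the members between the CIA groups. Of 10, 2 fell and none rose with luteolin against CIA (median -0.26), while 7 rose and 2 fell in both comparisons with control (medians 1.06 in CIA and 0.88 with luteolin). The 2 that fell against control were Cd8a and Cd8b1. Cd8a was at 4.15 ± 0.827 CPM in CIA with luteolin, 4.77 ± 0.678 in CIA and 17.6 ± 2.83 in control. Cd8b1 was at 7.37 ± 1.11, 8.96 ± 1.01 and 29.5 ± 6.93 CPM, so both stood above Cd4 (2.92 ± 0.639) in control. B cell markers fell in 3 of 8 with luteolin against CIA (median -0.99), in 5 of 8 in CIA against control (median -1.13) and in 8 of 8 with luteolin against control (median -2.18). Of the type 2 helper cell genes, 8 of 14 were tested, and 3 rose with luteolin over CIA (median 0.40), while 6 rose and 1 fell in each comparison with control (medians 1.27 in CIA and 1.92 with luteolin). Gata3, the factor of type 2 helper cells and of innate lymphoid cells, was at 5.29, 5.89 and 5.91 CPM in CIA with luteolin, 4.39, 8.98 and 16.3 in CIA and 1.60, 1.33 and 0.886 in control, and did not pass between the CIA groups (-0.79 ± 0.37, edgeR, adjusted p = 0.102). Il5 had 6 counts in CIA with luteolin, 0 in CIA and 2 in control. Gata3 and Il1rl1 were both highest in CIA replicate 3 among the CIA libraries, and the part of T cells in the level of Il1rl1 was not tested.

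Genes with the pattern most like the core members (Mcpt8, Prss34, Cpa3, Fcer1a, Ms4a2, Cd200r3 and Hdc) were ranked among 15056 tested non-members with a mean of at least 1 CPM, by Pearson correlation of log2 CPM over the 9 libraries. The closest were Muc13, a membrane mucin (r = 0.998), Lgals1, galectin 1 (r = 0.997), the chemokine gene Ccl6 (r = 0.997), the costimulatory receptor Tnfrsf9 (r = 0.996), the neutrophil granule gene Ltf (r = 0.996) and Rab5c, an endosomal GTPase (r = 0.994). Muc13 was at 43.4, 46.0 and 40.9 CPM in CIA with luteolin, 6.56, 9.19 and 11.7 in CIA and 0.350, 0.359 and 0.285 in control. The genes most like Il1rl1 were Drc7 and Tbkbp1 (r = 0.995 each), and those most like Il4 were Gpr84 (r = 0.977) and Csf2ra (r = 0.972). The 9 points share the 3 group levels, so each r describes these libraries only. Against the other core members, Ms4a2 had the highest r of the set, 0.996, and Il4 and Hdc the lowest, 0.843 and 0.851.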

How the data were processed

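RNA of 9 libraries from mouse spleen was prepared with a stranded kit and sequenced in pairs, per the labels' protocols. The deposited table gives raw counts per gene, which the authors obtained from featureCounts (Subread 1.5.1) after trimming by Trimmomatic 0.36, as the submitters' processing notes list. The labels' protocols name CHOK1GS, a hamster genome, as reference, while the processing notes give mm39, and the table lists mouse genes. The strand setting of the counting and the annotation release are not given in the sources used here. Small values were even more often than large ones (73.4% of those of 10 or less, 52.8% of those over 200 and up to 1000), as when every fragment adds 2 reads, so low counts stand for fewer fragments. No exonic base of a member is shared with another gene of the table. The closest transcript of another gene, over at least 150 bases, matched Cd200r3 at 97.9% over 189 bases (blastn).

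Counts were modelled with edgeR (version 4.0.16, R 4.3.3) by quasi-likelihood on all 9 libraries, with group as the only term, TMM scaling and filterByExpr, which kept 19348 of 56860 genes. Tests were 2-sided with Benjamini-Hochberg adjustment over the genes kept and a threshold of 0.05. The SE of a log2 fold change is its size over the root of its F statistic. The code was tested on simulated counts. Replicates of a group differed beyond sampling noise, the lowest chi-square being 5.51 per degree of freedom. The likeness ranking used log2 of CPM plus 0.1. The members and lists were chosen with earlier results of these data known. Beside the members, named genes are up to 4 per list with the smallest p in any comparison and 20 set whatever their values. Neighbours, genes named for having few or no counts, other list members and Hpgds as the mast cell gene that fell were named after their values were seen. Alternatives were DESeq2 1.42.0, its size factors, no filter, at least 1 CPM in 3 libraries, the 6 libraries compared, the replicate block, halved counts and leaving out each library in turn.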

Additional observations from a re-analysis of the deposited data

How the results depend on the processing

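All 3 counts of members called stayed within 1.5 times of 9 (CIA against control), 8 (CIA with luteolin against CIA) and 10 (CIA with luteolin against control) under the 16 alternatives. Leaving out a library gave 9 to 10, 7 to 8 and 9 to 10 members, and 8073 to 11065, 7289 to 9884 and 6835 to 10306 genes in all. Same-numbered libraries deviated together only weakly (correlations from 0.0065 to 0.143), so the numbers were not taken as pairs. With the replicate number as a block 9794, 9148 and 8764 genes and the same 3 counts of members were called. The fit of only the 6 libraries compared called 8262, 8043 and 10792 genes. Of 473 member values under the alternatives, 467 kept their direction and their side of the threshold. Hdc in CIA with luteolin against CIA lay between -0.41 and 0.081 as each library was left out, with 0.081 without CIA replicate 3, on the other side of 0, and passed in none of these fits. The 4 values that lost the threshold were those of Il1rl1 and Il4 given above, each without 1 library, and the value that gained it was Il4 in CIA against control. Il4 fell under the filter with counts halved or with at least 1 CPM in 3 libraries, which left 9 members called there in CIA with luteolin against control. Depth limits Il4, Fcer1a in control and the mast cell proteases, where a few reads decide the value.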
